A study of Rattus norvegicus with 9 samples.

Results

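The nuclear genes for oxidative phosphorylation were followed through whole-brain RNA of 9 rats that carried 0, 1 or 2 deleted copies of the long non-coding RNA gene Lrap. Members were the nuclear loci of the deposited count matrix whose annotated name, on the same strand, begins with Ndufa, Ndufb, Ndufc, Ndufs or Ndufv plus a number, is Sdha, Sdhb, Sdhc or Sdhd, or begins with Uqcr, with Cox4 to Cox8 or with Atp5. The locus with the highest mean count stood for each name. Of 81 names that match, 77 reached 10 expected counts in at least 3 of the 9 libraries, out of 114601 loci in the matrix. They comprise 33 genes of complex I, 4 of complex II, 8 of complex III, 15 of complex IV and 17 of complex V. All 77 also passed the filter for testing, which left 39057 loci. Of those, 16576 bore an annotated gene's name on the same strand and are called named loci here.

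The mitochondrial respiratory chain passes electrons from NADH through complex I, or from succinate through complex II, to ubiquinone, then through complex III and cytochrome c to complex IV, which reduces oxygen. Complexes I, III and IV pump protons, and complex V, the ATP synthase, uses the proton gradient to make ATP, on which brain tissue depends for ion pumping and synaptic transmission. Complex II is built wholly from nuclear genes, whereas the other complexes also hold subunits encoded in mitochondrial DNA.

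The rats were alcohol-naive males and were untreated, with 3 in each genotype. Wild types were Wistar rats from Charles River, and the mutants were Crl:WI-Lrapem1Geh rats in which CRISPR/Cas9 had removed 618 bp, on 1 allele in heterozygous (Lrap-/+) and on both in homozygous (Lrap-/-) rats. The title of the series names brain gene expression and alcohol consumption as its subjects. Each rat is a sample of its own in the labels. Whether wild types and mutants shared litters is not stated, and line and genotype then cannot be told apart in any comparison with wild type. No age is given.

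Library totals ran from 27489383 to 46975919 expected counts. In the assembled locus that holds a gap of 618 bp, the isoform containing those bases took 56.26 to 65.64% of the locus in wild-type rats, 36.79 to 42.23% in heterozygous and 9.89 to 21.79% in homozygous rats, by the authors' isoform percentages. Neuronal markers (8 of 8 with a locus) summed to 1300 to 1950 CPM (counts scaled to a common library size) in wild-type, 1560 to 1790 in heterozygous and 1610 to 1810 in homozygous rats, so that all libraries carried the RNA of nervous tissue. Cerebellar granule cell markers (7 of 7) ranged from 27.8 to 466 CPM over wild types, from 141 to 229 over heterozygous and from 26.8 to 371 over homozygous rats. Astrocyte markers (7 of 8) summed to 901 to 1510, 1120 to 1330 and 1040 to 1440 CPM, oligodendrocyte markers (8 of 8) to 2650 to 5700, 4510 to 5050 and 4130 to 5910, and blood markers (5 of 7) to 144 to 366, 94.3 to 196 and 112 to 145 in the same order. Microglia markers (7 of 7) summed to 79.7 to 104 CPM over wild types, 96.6 to 121 over heterozygous and 113 to 125 over homozygous rats, so that the sums of the homozygous rats lay above those of all wild types. Endothelial markers (5 of 6) summed to 71.4 to 140, 131 to 146 and 129 to 152 CPM. Heterozygous rats 2 and 3 stood apart in pineal markers (4 of 4), with sums of 93.1 and 95.4 CPM against 6.8 or less in the other 7 libraries. No marker of these lists that had a locus was at 0 in all libraries. Their part in the results was not tested.

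Some names need care. Of the 4 matching names below the count minimum, Ndufs5 was at 0 expected counts on average and Ndufa13 at 0.19, and both loci lie between other neighbours than those that RefSeq gives these genes. Ndufs5 sat between Cgn and Pogz in the files, but between Macf1l1 and Akirin1 in RefSeq. Cox7a1, an isoform of heart and skeletal muscle, averaged 3.92 counts and Cox7b2 averaged 0.22. The locus named Cox7a2l2 lies between Col12a1 and Tmem30a, the interval in which RefSeq places Cox7a2, the widely expressed isoform. The rule also takes in Atp5s and Atp5sl, which RefSeq now calls Dmac2l and Dmac2 and which are not subunits of the ATP synthase proper, Cox7a2l, a factor for joining complexes III and IV, and Ndufa4, which is now assigned to complex IV. Uqcr10 rested on fragments that only partly match its annotation, at 0.46 TPM, and Uqcrb has a second same-strand locus averaging 393.4 counts. Loci with counts above 10% of the member's own overlapped 14 members, 11 from the opposite strand and 3 from the same strand. The sources used here do not say whether counting used the strand. The values of Atp5s, Atp5d, Atp5f1, Uqcr10, Cox6c, Atp5sl, Ndufs3, Atp5j and Cox8b are thus uncertain by their neighbours' reads. Each has an opposite-strand locus with counts of at least 34.83% of its own. Sdhd and Atp5l are uncertain whether or not the strand was used, because loci of 177.98% and 145.26% of their counts overlap them on the same strand.

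Promoters of 67 of the 77 members were present in a RefSeq table (build GRCr8), 52 matched by symbol and 15 by an older symbol. The window matched to Cox7a2l2 is that of the RefSeq gene of this name, which lies between Hmgb3l1 and Pcdh7, away from the member's locus. It is counted below among the promoters of complex IV and among those with TATAAA. Each is a window of 300 bases, from 250 before to 50 after the start of the gene. The median GC content was 56.0% in members and 55.3% over 18999 protein-coding promoters, and the median number of CpG dinucleotides was 20 against 12. Short motifs of factors that are known to act at such genes were searched on both strands. The NRF-1 motif, GCGC and TGCGC with any 1 base between them, was in 12 promoters, or 17.9%, compared with 6.1% of protein-coding promoters. The core of the ETS motif that GABP binds, CCGGAAG, was in 18 (26.9% against 11.2%), and the YY1 motif AAGATGGCG was in 9 (13.4% against 2.3%). GGGCGG, the GC box, was in 40.3% of members and 43.1% of protein-coding promoters, TATAAA in 9.0% and 13.1%, and TCAAGGTCA, the site of the estrogen-related receptors, in 3.0% and 0.4%. By complex, the NRF-1 letters were in 5 of 30 promoters of complex I, 1 of 4 of complex II, 1 of 6 of complex III, 0 of 12 of complex IV and 5 of 15 of complex V. Over all 27457 promoters of the table, the NRF-1, ETS and YY1 motifs were in 4.7%, 9.2% and 1.9%. A match is a stretch of letters, not a bound site.

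Below are 6 of these promoters, each 5′ to 3′ on the gene's strand, shown because the results turn on the genes: the widely expressed isoform of a complex IV subunit against the muscle isoform of another, and 4 members with a difference between genotypes at an unadjusted p under 0.05. Capitals mark NRF-1, ETS, YY1 or TATAAA letters on either strand. They lie at chr19:65630133-65630432 (Cox4i1, plus strand), chr1:192219667-192219966 (Cox6a2, minus), chr7:15311196-15311495 (Ndufa7, plus), chr7:10110449-10110748 (Ndufs7, minus), chr7:135678169-135678468 (Atp5g2, minus) and chr11:37375052-37375351 (Atp5j, minus), all in GRCr8.
Cox4i1: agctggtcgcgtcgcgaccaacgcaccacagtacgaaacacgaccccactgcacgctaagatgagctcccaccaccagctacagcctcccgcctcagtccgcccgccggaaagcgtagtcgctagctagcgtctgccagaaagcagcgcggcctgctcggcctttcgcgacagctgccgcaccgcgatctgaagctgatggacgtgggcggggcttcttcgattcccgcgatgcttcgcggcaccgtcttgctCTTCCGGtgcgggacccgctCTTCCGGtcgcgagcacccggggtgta
Cox6a2: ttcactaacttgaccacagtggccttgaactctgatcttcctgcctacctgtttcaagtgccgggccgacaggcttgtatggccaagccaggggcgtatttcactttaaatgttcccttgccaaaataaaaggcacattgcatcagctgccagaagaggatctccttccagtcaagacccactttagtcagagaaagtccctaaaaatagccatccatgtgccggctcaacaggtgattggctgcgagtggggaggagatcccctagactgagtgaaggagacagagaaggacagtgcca
Ndufa7: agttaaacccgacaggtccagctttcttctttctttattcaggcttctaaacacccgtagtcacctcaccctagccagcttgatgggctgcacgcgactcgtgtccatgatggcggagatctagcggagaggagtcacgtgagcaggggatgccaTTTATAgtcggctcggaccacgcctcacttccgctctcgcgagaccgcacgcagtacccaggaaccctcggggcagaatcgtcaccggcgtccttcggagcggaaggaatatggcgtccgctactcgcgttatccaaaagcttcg
Ndufs7: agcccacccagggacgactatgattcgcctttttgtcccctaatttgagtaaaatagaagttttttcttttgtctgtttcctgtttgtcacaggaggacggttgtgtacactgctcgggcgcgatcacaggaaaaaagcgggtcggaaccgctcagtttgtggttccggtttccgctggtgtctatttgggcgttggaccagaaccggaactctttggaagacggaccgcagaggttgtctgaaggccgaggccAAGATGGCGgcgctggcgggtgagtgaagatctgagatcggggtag
Atp5g2: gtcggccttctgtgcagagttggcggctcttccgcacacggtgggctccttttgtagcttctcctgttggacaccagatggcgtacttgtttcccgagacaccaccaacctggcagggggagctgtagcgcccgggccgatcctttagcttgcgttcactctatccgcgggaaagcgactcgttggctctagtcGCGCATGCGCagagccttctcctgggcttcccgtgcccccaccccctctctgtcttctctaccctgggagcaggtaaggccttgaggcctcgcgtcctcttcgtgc
Atp5j: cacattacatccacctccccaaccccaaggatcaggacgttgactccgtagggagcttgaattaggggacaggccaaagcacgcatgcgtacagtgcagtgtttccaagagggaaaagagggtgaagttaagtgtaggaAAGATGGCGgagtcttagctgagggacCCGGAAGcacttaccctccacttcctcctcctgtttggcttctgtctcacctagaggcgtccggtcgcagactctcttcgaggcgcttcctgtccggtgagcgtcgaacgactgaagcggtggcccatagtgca
In these windows Cox4i1 held the ETS letters at 2 places after the start, Atp5g2 held the NRF-1 letters starting 56 bases before it, and Ndufs7 held the YY1 letters starting 4 bases after it. Ndufa7 held the TATAAA letters on the other strand, 95 bases before its start. Atp5j held the ETS letters 84 and the YY1 letters 111 bases before its start. Cox6a2 held none of the searched letters, and its window contained 5 CpG dinucleotides compared with 38 in Cox4i1.

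Levels of different genes were compared as TPM, the deposited transcript levels, which account for transcript length, as means over the 9 libraries. The members' mean TPM ran from 0.46 to 180 with a median of 31.4. Of the 77, 6 exceeded 100 TPM and 10 stayed under 5. Atp5b, the catalytic beta subunit of the ATP synthase, was the highest, at 180 TPM (range over rats 130.26 to 280.39). Cox6a1, the widely expressed isoform of a small complex IV subunit, followed at 145, Atp5i at 144, Cox4i1 at 121, Cox6c at 113 and Atp5a1, the alpha subunit, at 109. The median gene of complex IV stood at 67.6 TPM and that of complex V at 50.3, compared with 27.3 for complex II, 25.8 for complex III and 23.2 for complex I. Within complex I as sorted by name, Ndufa4 (62.4, now assigned to complex IV), Ndufb4 (58.5) and Ndufa3 (55.1) were highest. Ndufc1 (3.64) and Ndufb6 (3.6) were lowest there. Ndufb6 and Ndufc1 were assembled only in forms that differ from their annotation, and their low TPM is not matched by low counts. Ndufb6 averaged 1367.33 expected counts compared with 1328.97 for Ndufb4, and Ndufc1 713.84 compared with 511.44 for Ndufa3. The part of assembled transcript length in their TPM was not tested. Among the nuclear core subunits of complex I, which carry its flavin and iron-sulfur clusters, Ndufs7 was lowest at 6.33 TPM, while Ndufv1 stood at 21.2 and Ndufv2 at 31.4. In complex II, Sdha (31.5), the flavoprotein, Sdhb (27), the iron-sulfur protein, and the anchors Sdhc (27.7) and Sdhd (17.6) lay within 2-fold of each other. In complex III the mean TPM of the core proteins Uqcrc1 and Uqcrc2 was 26.8 and 29.5 and that of the Rieske protein Uqcrfs1 was 24.8, while Uqcr11 (70.7) and Uqcrh (43.6) were highest. The lowest in complex V as sorted by name were Atp5f1 (4.1) and Atp5s (1), the latter not a subunit of the ATP synthase proper.

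Of each pair of complex IV isoforms, brain RNA held almost solely the widely expressed one, in all 9 libraries. Cox4i2, known as the isoform of lung and of low oxygen, took 0.464% of the TPM of the Cox4i pair (range 0.369 to 0.639%). Cox6a2, the heart and muscle isoform, took 0.67% of its pair (0.326 to 1.31%), Cox6b2, the testis isoform, 0.677% (0.349 to 1.04%), and Cox8b, a heart and muscle isoform, 1.36% (0.502 to 2.35%). In the wild types Cox6a2 was at 0.563, 0.208 and 1.03 CPM, the lowest and the highest of the 9 libraries both being among them. Striated muscle markers (7 of 10 with a locus) summed to 4.19 to 6.97 CPM over wild types and 6.49 to 8.2 over heterozygous rats. Over homozygous rats they summed to 8.51 to 10.9 CPM, above all wild-type and heterozygous rats. The part of muscle RNA in the values of these isoforms was not tested. The 3 genes for the c ring, the rotor of the ATP synthase, encode the same mature protein and were all used. Atp5g3 held 47.2% of their TPM, Atp5g1 26.5% and Atp5g2 26.3%. The Atp5g2 share was 26.2, 19.6 and 25% in the wild types, 26.1, 25.1 and 26.5% in heterozygous rats and 32.9, 28.4 and 26.9% in homozygous rats. Homozygous rats had the 3 highest shares, the nearest wild type being less than 1 percentage point below. The Atp5g3 share was 50.9 ± 4.28% (wild type), 47.2 ± 1.5% (heterozygous) and 43.6 ± 3.73% (homozygous; SD, n = 3).

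**Figure D1:**
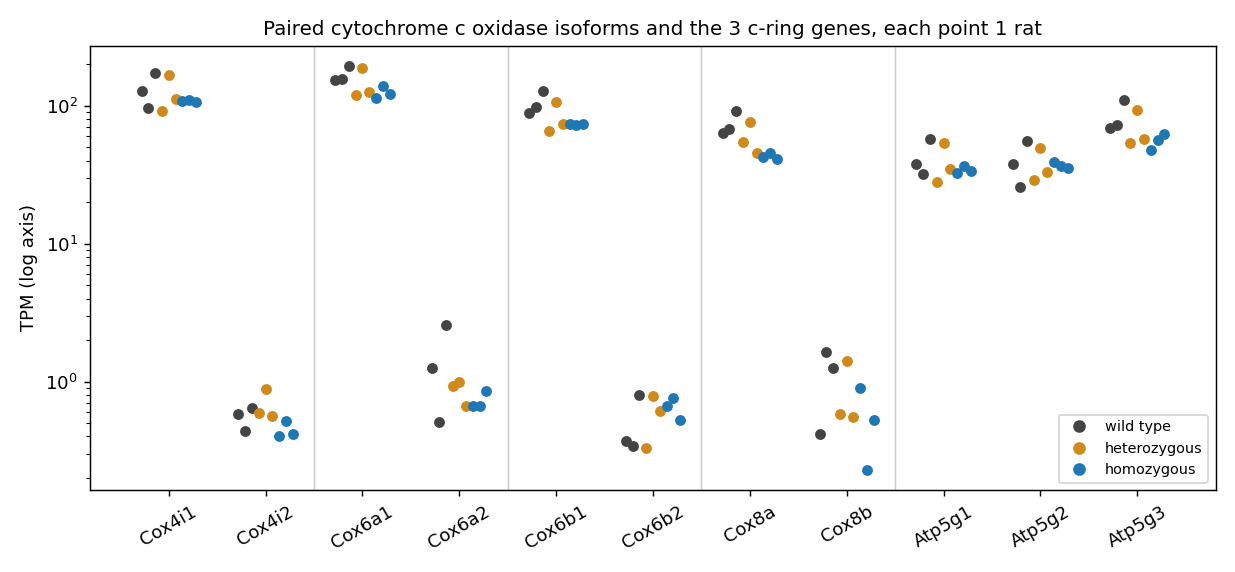
TPM (log axis) of the paired complex IV isoforms and of the c-ring genes, each point 1 rat, colored by genotype. Cox4i1, Cox6a1, Cox6b1 and Cox8a lie far above their partners in every rat, while the 3 Atp5g genes lie within a few-fold of each other.

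The shares of complexes I, IV and V in the members' summed TPM were close to constant over genotypes, and the mean shares of complexes II and III were highest in homozygous rats. Such a share weighs abundant genes most and is not a ratio of subunits. Complex I held 28.4 ± 0.656% (wild type), 28.4 ± 0.486% (heterozygous) and 28.2 ± 0.557% (homozygous) of the members' summed TPM (SD, n = 3, the same order below). Complex V held 32.5% in each genotype, with SDs of 0.257, 0.51 and 1.03. Complex IV held 29.4 ± 1.5%, 29.0 ± 0.526% and 28.6 ± 0.513%. Complex II held 3.12 ± 0.45%, 3.33 ± 0.179% and 3.45 ± 0.0211%, and complex III 6.63 ± 0.32%, 6.79 ± 0.213% and 7.32 ± 0.399%. For complexes I, II, IV and V the ranges of the genotypes overlapped. For complex III the homozygous rats, at 7.02 to 7.77%, lay above the wild types, at 6.27 to 6.88%, and met the heterozygous rats, at 6.61 to 7.03%. The share without Uqcr11, at 70.7 TPM the highest gene of complex III, was not computed. With each gene weighed alike, as mean log2(CPM + 0.5) relative to all members, the ranges overlapped. Complex III was then at -0.25, -0.24 and -0.29 in wild types and at -0.16, -0.29 and -0.26 in homozygous rats.

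Between libraries, levels were compared as CPM on library sizes scaled by the TMM method, and means of log2(CPM + 0.5) over members describe a complex. The 77 members averaged 4.68, 4.71 and 5.09 in wild-type rats 1 to 3, 4.76, 4.98 and 5.11 in heterozygous rats and 5.10, 4.98 and 5.17 in homozygous rats. Wild-type rats 1 and 2 and heterozygous rat 1 were low, and wild-type rat 3 was as high as the homozygous rats, so the groups overlapped. Named loci as a whole moved with them: their deviation from the 9-library mean was -0.11, -0.25 and 0.11 in wild-type rats, compared with -0.27, -0.24 and 0.14 for members. In homozygous rats it was 0.07, 0.02 and 0.12, compared with 0.14, 0.03 and 0.22.

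**Figure D2:**
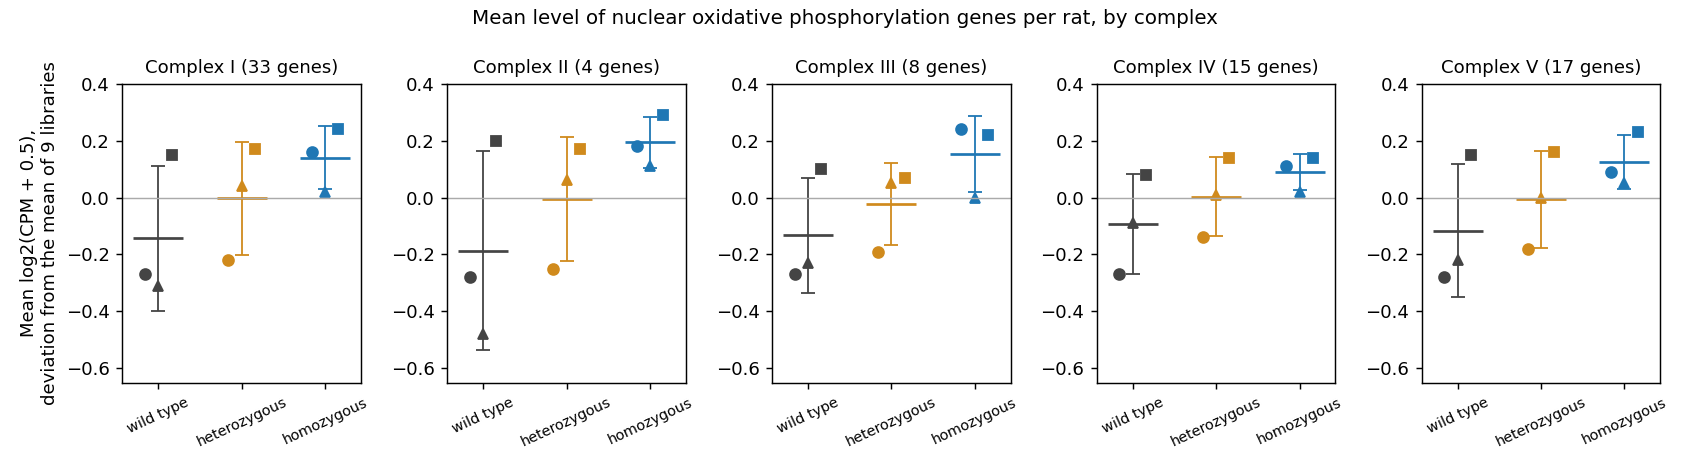
Mean log2(CPM + 0.5) of each complex in each rat, as the deviation from the mean of the 9 libraries; circles, triangles and squares are rats 1, 2 and 3, and lines with bars are the genotype mean and SD. In all 5 complexes wild-type rat 3 lies among the homozygous rats, and wild-type rat 2 is lowest in complex II (-0.48) but not in complex IV (-0.09).

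The complexes did not move as a block in wild-type rat 2. Complex II stood 0.70 log2 units above the mean of the members there, compared with 0.88 to 1.02 in the other 8 libraries, and complex IV stood 0.47 below it, compared with 0.58 to 0.72 below. All 4 complex II genes were lowest in this rat. Sdha was at 103, 77.3 and 159 CPM in the wild types, 108, 136 and 146 in heterozygous rats and 157, 134 and 164 in homozygous rats. Cox7b, a small complex IV subunit, was at 30.8, 65.1 and 42.4 CPM in the wild types and between 35.6 and 42.6 in the 6 mutants. For Cox7b, then, wild-type rat 2 was the highest and wild-type rat 1 the lowest of the 9. In wild-type rat 2 the 39 members with an effective transcript length of at least 577 bases had a median deviation of -0.33, and the 38 shorter members -0.12. In the other 8 libraries the medians of long and short members differed by 0.10 or less. This library also had the largest share of counts from 5 mitochondrially encoded loci, 40.38%, compared with 14.83 to 28.05% in the others. The part of transcript length and of the mitochondrial share in these values was not tested.

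Wild-type rat 1 had the lowest CPM of the 9 rats in 33 of the 77 members (42.9%), compared with 12.9% of named loci, and wild-type rat 2 in 30 (39.0%), compared with 50%. Homozygous rat 3 was highest in 28 members (36.4%, named loci 15.9%), homozygous rat 1 in 17 and wild-type rat 3 in 14. Members lowest in wild-type rat 1 numbered 9 of 15 in complex IV, 9 of 17 in complex V, 13 of 33 in complex I, 2 of 8 in complex III and 0 of 4 in complex II.

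**Figure D3:**
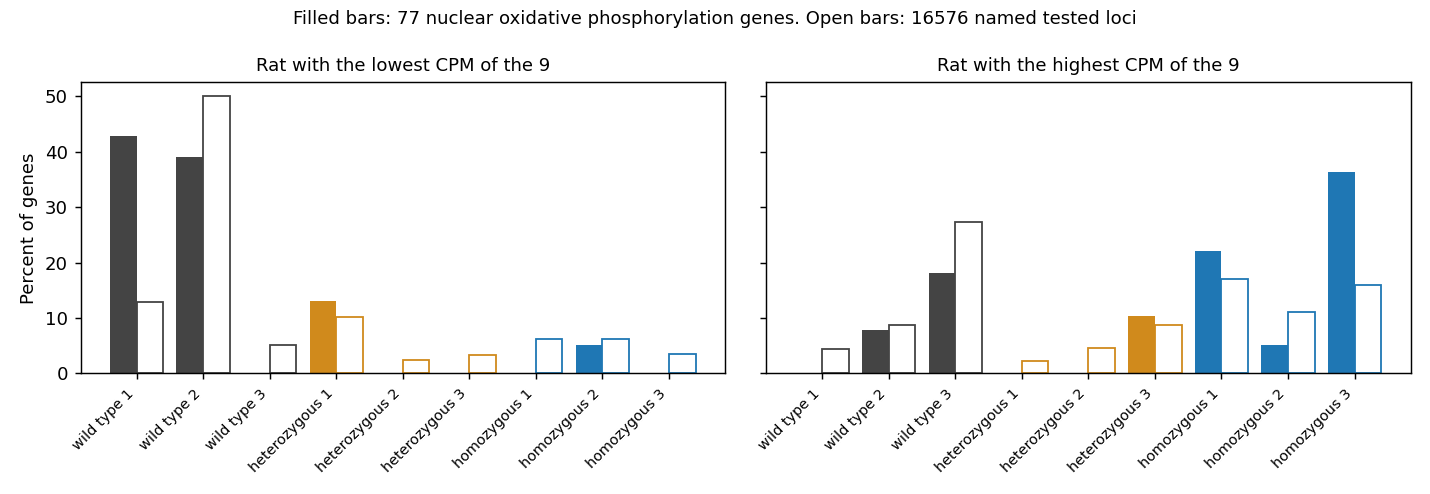
Percent of genes whose lowest (left) or highest (right) CPM fell in each rat, for the 77 members (filled bars) and for 16576 named loci (open bars), colored by genotype. Wild-type rat 1 is lowest for 42.9% of members and 12.9% of named loci, and homozygous rat 3 is highest for 36.4% and 15.9%.

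A typical member varied by 1.64-fold between its lowest and highest rat, and the median SD of log2(CPM + 0.5) over the 9 rats was 0.23 for members and 0.23 for named loci. The widest spreads were those of Ndufb7 (SD 0.70), Ndufs7 (0.62), Atp5d (0.50), Ndufa11 (0.47) and Atp5g2 (0.40). Ndufb7, an accessory subunit of complex I, was at 10.1, 2.76 and 14 CPM in the wild types, 9.4, 11.6 and 11.5 in heterozygous rats and 18.6, 10.6 and 10.9 in homozygous rats. All 5 of these genes were lowest in wild-type rat 2 and highest in homozygous rat 1. The narrowest were Cox8a (SD 0.10), Cox7a2l (0.15), Ndufa5, Ndufc1 and Atp5l (0.16 each). Cox8a was between 32.9 and 42.8 CPM in all rats.

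Homozygous against wild-type rats asked how loss of both Lrap copies goes with expression of these genes. No member passed edgeR's quasi-likelihood test (0 of 77, smallest Benjamini-Hochberg adjusted p = 0.544), and none of all tested loci did (0%). DESeq2 called 0 members and 33 of all loci, and limma-voom called 0 of either. At an unadjusted p under 0.05, edgeR found 17 members higher in homozygous rats and 2 lower, and each of the other tools found 18 in all. The share over all tested loci was 4.88% higher and 4.25% lower, and over named loci 10% higher and 1.03% lower. Ranges of the genotypes did not overlap in 20 members that were higher and 2 that were lower, compared with 7.29% and 6.09% of all tested loci, and with 14.5% and 2.29% of named loci. The median log2 fold change was 0.20 over members, 0.14 over named loci and -0.07 over all tested loci, and it was positive in 65 of 77 members (84.4%), compared with 71.4% of named loci. In bulk tissue, fewer cells of a type and less RNA per cell cannot be told apart. Without wild-type rat 3 the members' median was 0.40 and that of named loci 0.30, and 40 members (51.9%) had an unadjusted p under 0.05, as did 32.2% of named loci and 26.8% of all tested loci. Without wild-type rat 1 both medians were 0.10, and 11 members (14.3%), 7.38% of named loci and 6.77% of all loci had such a p. Without wild-type rat 2 the medians were 0.20 and 0.05.

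The direction depended on the scale. Summed over members, TMM-scaled CPM was 3300, 3440 and 4510 in wild-type rats and 4380, 4260 and 4800 in homozygous rats, and 65 members had the higher mean in homozygous rats. As plain CPM, on unscaled library sizes, the sums were 3420, 3690 and 5320 against 3600, 4190 and 4070, and 28 members were higher and 49 lower. In the deposited TPM they were 3180, 3450 and 4770 against 2450, 2520 and 2670, and 75 members were lower and only Ndufs7 and Cox6b2 higher. The median log2 ratio of members was -0.13 without TMM and -0.60 in TPM, where named loci had -0.18 and -0.64. With all 9 libraries, the members' median lay 0.04 to 0.06 above that of named loci on each of the 3 scales, but on the TMM scale this excess was 0 without wild-type rat 1 and 0.15 without wild-type rat 2. Both members that were lower on the TMM scale at an unadjusted p under 0.05, Atp5j and Uqcrb, were lower with no overlap on all 3 scales, with log2 ratios of -0.83 and -0.78 in plain CPM and -1.32 and -1.25 in TPM. They were the only 2 members lower with no overlap in plain CPM, but in TPM 50 of the 77 members were. The shares of named loci without overlap were not computed for plain CPM and TPM. Of the 17 higher ones, all had a positive ratio in plain CPM, but only the ranges of Ndufa7 stood apart there. In TPM only Ndufs7 (0.22) and Cox6b2 (0.37) kept a positive ratio, and Cox6b2 averaged only 14.11 expected counts. Every difference in the rest of the text is on the TMM scale unless another is named.

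By complex, the median log2 fold change of homozygous over wild type was 0.15 in complex I, 0.35 in complex II, 0.35 in complex III, 0.16 in complex IV and 0.20 in complex V, compared with 0.14 for named loci. Positive values numbered 31 of 33, 4 of 4, 7 of 8, 10 of 15 and 13 of 17. Without wild-type rat 3 the medians were 0.37 in complex I, 0.58 in complex II, 0.54 in complex III, 0.40 in complex IV and 0.40 in complex V. Without wild-type rat 1 they were 0.06, 0.28, 0.22, 0.08 and 0.11, where named loci had 0.10, and without wild-type rat 2 that of complex II was 0.22.

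**Figure D4:**
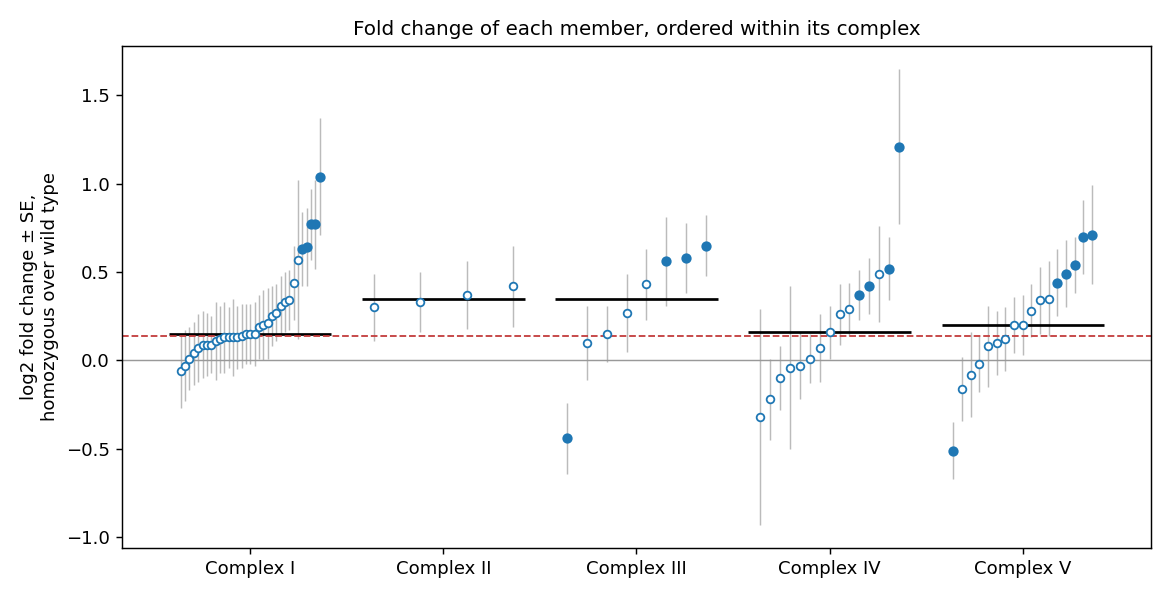
Log2 fold change of each member, homozygous over wild type on the TMM scale, with its SE, ordered within each complex; filled points have an unadjusted p under 0.05, black lines are the medians of the complexes and the dashed line is the median of named loci (0.14). No point passed the adjusted test, and the medians of complexes II and III (0.35) lie above that of complex I (0.15).

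In complex I the nuclear core subunits had a median log2 fold change of 0.33 (7 of 7 positive). The 26 accessory subunits, with Ndufa4 counted among them by its name, had 0.14 (24 positive). Ndufs7, a core subunit that holds the last iron-sulfur cluster before ubiquinone, was at 7.67, 3.72 and 9.83 CPM in the wild types, 8.66, 10.3 and 12.9 in heterozygous rats and 19.3, 10.4 and 14.2 in homozygous rats. All homozygous rats exceeded all wild types, by the smallest margin between homozygous rat 2 and wild-type rat 3. Its log2 fold change was 1.04 (SE 0.33, edgeR unadjusted p = 0.00808, adjusted p = 0.544), and 0.74 without wild-type rat 2. Ndufv1, which binds NADH and the flavin, was at 49.3 ± 14.6, 60.8 ± 11.1 and 76.4 ± 3.93 CPM in wild-type, heterozygous and homozygous rats (SD, n = 3), and Ndufs8 at 14.5 ± 3.56, 18.2 ± 4.34 and 22.5 ± 2.40. Ndufs1, Ndufs3 and Ndufv2 overlapped between genotypes, with log2 fold changes of 0.13, 0.25 and 0.04.

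Among accessory subunits, Ndufa7 had the smallest p of all members. It was at 11.2, 7.73 and 11.7 CPM in the wild types, 11.3, 14.1 and 16.2 in heterozygous rats and 19, 15.5 and 17.4 in homozygous rats. Homozygous rats were all above wild types, and heterozygous rats spanned the gap between them. The log2 fold change was 0.77 (SE 0.20, edgeR unadjusted p = 0.00261, adjusted p = 0.544). Ndufa11 was at 17.9, 10.4 and 22.6 CPM in wild-type and 30.6, 29.1 and 27.1 in homozygous rats, with a log2 fold change of 0.77 (SE 0.25), and of 0.51 without wild-type rat 2. Ndufb7 had a log2 fold change of 0.57 (SE 0.45), which was 0.14 without wild-type rat 2 and 1.07 without wild-type rat 3.

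All complex II genes had like values, from 0.30 for Sdhb to 0.42 for Sdha, with p between 0.0726 and 0.133 in edgeR before adjustment. None of the 4 separated the genotypes, because wild-type rat 3 lay among the mutants. Without that rat Sdha was at 0.78, and without wild-type rat 2 at 0.21.

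In complex III the smallest p was that of Uqcr11, the smallest subunit. It was at 43, 32.2 and 43.6 CPM in the wild types, 41.1, 48 and 55.6 in heterozygous rats and 69.7, 61.1 and 55.2 in homozygous rats. Homozygous rats lay above all wild types, while heterozygous rat 3 lay among them. The log2 fold change was 0.65 (SE 0.17, edgeR unadjusted p = 0.00293, adjusted p = 0.544). The core protein Uqcrc1 was at 57.7, 48.7 and 82.6 CPM in wild-type and at 93.4, 94.3 and 94.4 in homozygous rats. Its partner Uqcrc2, at 87.8 ± 30.7 and 106 ± 18.8 CPM, overlapped between genotypes. Uqcrq had a log2 fold change of 0.43 (SE 0.20). Uqcrb, a ubiquinone-binding subunit, went the other way, from 13.9, 14.4 and 17.6 CPM in wild type to 12.2, 8.82 and 12.7 in homozygous rats, a log2 fold change of -0.44 (SE 0.20, edgeR unadjusted p = 0.0472), and of -0.30 without wild-type rat 3. With its second locus added it was -0.52.

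In complex IV, Cox4i1, a regulatory subunit, was at 115, 88.5 and 138 CPM in the wild types, 116, 142 and 166 in heterozygous rats and 168, 159 and 164 in homozygous rats. Homozygous rats differed little among themselves, and wild types were spread widely below them. The log2 fold change was 0.52 (SE 0.18, edgeR unadjusted p = 0.0128, adjusted p = 0.544). Cox6a1 (log2 fold change 0.37), Cox5b (0.42) and Cox6b1 (0.29) likewise did not overlap between the homozygous and wild-type ranges. Cox6b2 had the largest fold, 1.21 (SE 0.44), at 0.179, 0.156 and 0.326 CPM in the wild types and 0.531, 0.585 and 0.428 in homozygous rats. That fold rests on only 6 to 25 expected counts per library over the 9 rats. Cox8a was at 37.7 ± 4.98, 39.3 ± 0.913 and 38.0 ± 1.13 CPM over the genotypes, and its log2 fold change was 0.01 (SE 0.14).

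In complex V the parts of the enzyme are given side by side, with no test between them. The F1 head, which makes ATP, had a median log2 fold change of 0.44 (5 of 5 positive), the c ring 0.49 (3 of 3) and the peripheral stalk, which holds the head still, 0.02 (2 of 4). Atp5e, the epsilon subunit of the head, was at 27, 28 and 30.1 CPM in the wild types, 29.2, 33 and 41.7 in heterozygous rats and 39.2, 41.7 and 42.8 in homozygous rats. These ranges stand clear of each other between wild type and homozygous, and the log2 fold change was 0.54 (SE 0.16, edgeR unadjusted p = 0.0051, adjusted p = 0.544). It stayed between 0.51 and 0.62 when any 1 library was left out. Atp5d, the delta subunit, was at 19.3 ± 7.95 CPM in wild-type and 31.5 ± 4.36 in homozygous rats, and its log2 fold change went from 0.71 to 0.41 without wild-type rat 2. Atp5a1, Atp5c1, the gamma subunit, and Atp5b had log2 fold changes of 0.44, 0.35 and 0.20, with overlapping ranges, and of 0.72, 0.66 and 0.38 without wild-type rat 3.

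For the c ring, Atp5g2 was at 27.9, 19.7 and 36.6 CPM in the wild types, 29.5, 33.7 and 40.3 in heterozygous rats and 49.5, 43.1 and 43.9 in homozygous rats. Wild-type and homozygous ranges did not overlap (log2 fold change 0.70, SE 0.21, edgeR unadjusted p = 0.00646, adjusted p = 0.544). Atp5g1 had 0.49 (SE 0.19) and Atp5g3 0.20 (SE 0.17), the latter with overlapping ranges.

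Atp5j, subunit F6 of the peripheral stalk, was lower. It was at 29, 34.9 and 36.7 CPM in the wild types, 32.4, 34.8 and 26.6 in heterozygous rats and 25.3, 20.7 and 24.7 in homozygous rats. Each homozygous rat was below all 6 others. The log2 fold change was -0.51 (SE 0.16, edgeR unadjusted p = 0.00953, adjusted p = 0.544), between -0.60 and -0.40 when any 1 library was left out. Its other stalk partners Atp5o, Atp5h and Atp5f1 were at 0.34, 0.12 and -0.08. The Atp5j locus (rn6 chromosome 11, 24286787 to 24294372, minus strand) is overlapped from the other strand by Gabpa, the gene of an ETS factor, whose counts come to 35.64% of its own. Gabpa was at 8.08, 8.15 and 13.9 CPM in wild-type and 11.1, 8.96 and 13.6 in homozygous rats.

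**Figure D5:**
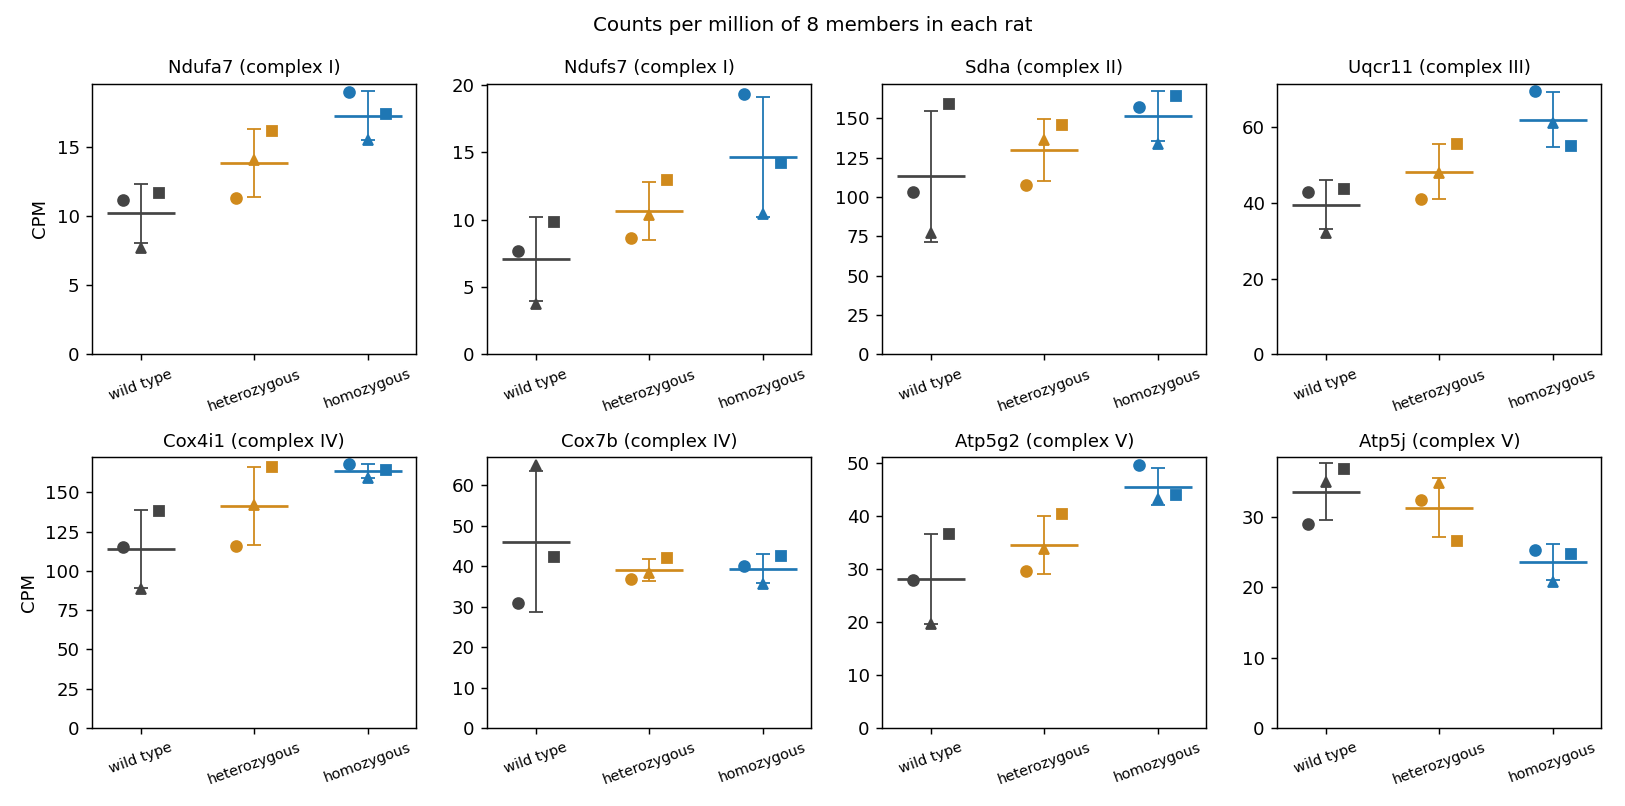
CPM of 8 members in each rat, on axes that start at 0; circles, triangles and squares are rats 1, 2 and 3, lines and bars the genotype mean and SD. On this TMM scale, in Ndufa7, Ndufs7, Uqcr11, Cox4i1 and Atp5g2 the homozygous rats lie above all wild types, in Atp5j below them, and in Sdha and Cox7b the ranges overlap.

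Of the 17 members that were higher at an unadjusted p under 0.05, 14 were lowest in wild-type rat 2 and 3 in wild-type rat 1, compared with 16 and 30 of the 58 members without such a p. Over all named loci, 50% were lowest in wild-type rat 2 and 12.9% in wild-type rat 1. The split rests on p-values from these same values, which favor a lowest rat among the wild types, so it is a description only. Uqcr11, Ndufs7 and Atp5d lie within 263 kb of each other on chromosome 7 (rn6), at 12171185 to 12175835, 12318757 to 12326392 and 12426809 to 12434473, a cluster singled out after its values were seen. In the same build Ndufa7 lies at 18683553 to 18696330 and Atp5g2 at 144264214 to 144272578 of chromosome 7, Sdha at 31545631 to 31570601 of chromosome 1 and Cox4i1 at 54245950 to 54252225 of chromosome 19.

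Heterozygous against wild-type rats asked what goes with loss of 1 copy. edgeR called 0 of 77 members (smallest Benjamini-Hochberg adjusted p = 0.981), compared with 0.00768% of all tested loci. DESeq2 and limma-voom called 0 members, and 18 and 2 of all loci. At an unadjusted p under 0.05, edgeR found 2 members higher (all tested loci 1.37%, named loci 2.13%) and 0 lower (2.35% and 0.549%), and each of the other tools found 1. Without wild-type rat 3, 24 members (31.2%), 19.2% of named loci and 16.9% of all loci had such a p. Ranges stood apart in 2 members that were higher (2.69% and 3.75%) and 0 that were lower (3.8% and 2.12%). The median log2 fold change was 0.08 over members and 0.07 over named loci, 0.29 and 0.25 without wild-type rat 3, and -0.01 and 0.06 without wild-type rat 1. The smallest p were those of Cox4i2, Ndufa7, Atp5e, Ndufs7 and Cox4i1. Cox4i2 was at 0.818, 0.625 and 0.802 CPM in the wild types, 1.16, 1.15 and 1.29 in heterozygous rats and 0.973, 1.17 and 1.01 in homozygous rats. Both mutant genotypes lay above wild type, at levels near 1 CPM (log2 fold change 0.68, SE 0.26, adjusted p = 0.981 for heterozygous).

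Homozygous against heterozygous rats compared 2 deleted copies with 1, within the mutant line. edgeR called 0 of 77 members (adjusted p = 1 for each), compared with 0.00256% of all tested loci. DESeq2 and limma-voom called 0 members, and 6 and 2 of all loci. At an unadjusted p under 0.05, edgeR found 0 members higher (all tested loci 0.512%, named loci 0.452%) and 1 lower (1.2% and 0.41%), and each of the other tools found 1 in all. The member in edgeR was Atp5j (log2 fold change -0.41, SE 0.16). Ranges stood apart in 5 members that were higher, Ndufv1, Uqcrc1, Uqcrfs1, Atp5g2 and Atp5sl, compared with 4.71% of all tested and 8.19% of named loci. They also stood apart in Atp5j, which was lower (4.12% and 1.89%). The next smallest p belonged to Uqcr11, Uqcrq, Atp5g2 and Uqcrb, with log2 fold changes of 0.36, 0.39, 0.40 and -0.35. The median was 0.14 over members and 0.07 over named loci, 0.02 and 0.01 without heterozygous rat 1, 0.23 and 0.12 without heterozygous rat 3, and 0.07 and 0.05 without homozygous rat 3. The comparisons with wild type share their wild-type rats, and those with homozygous rats share those, so their values are set side by side without a measure of likeness.

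Other genes of mitochondrial energy metabolism were taken from lists. In homozygous against wild-type rats edgeR called none of their members, and the median log2 fold change was 0.14 over 44 assembly factors (31 positive), 0.20 over 13 other chain genes, 0.19 over 16 genes of mitochondrial membranes, 0.10 over 15 of pyruvate and citric acid cycle enzymes and 0.16 over 15 regulators of mitochondrial biogenesis. The 16 glycolysis genes had a median of 0.33, and all 16 were positive. Named loci had 0.14. At an unadjusted p under 0.05 the lists held 3 higher and 1 lower, 2 and 0, 4 and 0, 0 and 0, 2 and 0, and 3 and 0 genes in that order, where named loci had 10% higher and 1.03% lower.

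Among assembly factors of complex I, Ndufaf6 was at 4.89 ± 1.16, 7.7 ± 0.711 and 8.15 ± 1.47 CPM and Ndufaf2 at 2.23 ± 0.207, 1.82 ± 0.43 and 1.18 ± 0.473 over wild-type, heterozygous and homozygous rats (SD, n = 3). Of the regulators, Esrra, the estrogen-related receptor alpha, was at 7.98, 3.64 and 10.1 CPM in the wild types, 8.08, 10.2 and 11.7 in heterozygous rats and 18.4, 12.8 and 14 in homozygous rats. Its log2 fold change was 1.05 (SE 0.31, edgeR unadjusted p = 0.00545, adjusted p = 0.544). Polrmt, the mitochondrial RNA polymerase, had 0.72 (SE 0.30), Nrf1 0.31 and Gabpa 0.16, while Tfam, the packaging factor of mitochondrial DNA, had -0.06 and Ppargc1a -0.03. The coenzyme Q synthesis genes Coq9 and Coq6 had 0.41 and 0.37, the membrane proteins Tomm40 and Phb 0.60 and 0.59, and the glycolytic enzymes Aldoc and Eno1 0.57 and 0.55. The citric acid cycle enzyme Ogdh had -0.58.

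The subunits that mitochondrial DNA supplies to these complexes were measured in few loci. The 5 mitochondrially encoded loci together were at 206000, 376000 and 166000 CPM in the wild types. Nearly all of this came from the locus named Mt-co1, after a subunit of complex IV. Whether that locus also holds transcripts of other mitochondrial genes was not tested, so its values need not be those of 1 subunit. The Mt-co1 locus was at 204000, 375000 and 165000 CPM in the wild types, 203000, 240000 and 186000 in heterozygous rats and 179000, 170000 and 192000 in homozygous rats. Wild-type rat 2 held by far the most, and the other ranges overlapped (log2 fold change -0.46, SE 0.25, edgeR adjusted p = 0.549). Mt-cyb, of complex III, was at 1410 ± 424, 1110 ± 214 and 1040 ± 210 CPM (log2 fold change -0.44, SE 0.23, adjusted p = 0.544).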

How the data were processed

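RNA of whole brain was measured in 9 rats, as ribosome-depleted stranded libraries with paired reads, per the labels' protocols. The submitters' processing notes name cutadapt, HISAT2, StringTie, RSEM and the rn6 build. Versions: not given in the sources used here. Expected counts were deposited per locus. They are estimates that need not be whole and were rounded here. The authors also deposited TPM, used to compare genes within libraries, and isoform percentages, the percent of a locus assigned to each isoform. Names came from the annotated assembly.

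Spike-in loci (99) were left out. Loci passing filterByExpr were fitted together over the 3 genotypes with edgeR 4.0.16 (TMM, quasi-likelihood, R 4.3.3), with Benjamini-Hochberg adjustment over 39057 loci at 0.05. CPM use TMM-scaled library sizes, and log2 means a pseudocount of 0.5. DESeq2 1.42.0, limma-voom (limma 3.58.1), other scalings and filters, an effective-length offset, a replicate block and each library left out were alternatives. The fits were tested on simulated data with larger folds than those of most members. Apart from the changed loci, the simulated libraries shared the same composition, so that test covers neither small folds nor the choice of scale. Between libraries of a genotype the chi-square per locus was 19.2 or more, so none was taken as a repeat. P-values measure the spread between these rats.

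Members and lists were chosen with earlier results of these data known. Genes are named by a rule: per complex the 5 smallest p of homozygous against wild type, the 3 highest and 2 lowest TPM, the 5 smallest p in each other comparison, set roles, the 5 widest and narrowest spreads and 2 genes per list. Cox7b, Cox7a2l2, Atp5sl, Gabpa, Nrf1, Tfam, Ppargc1a and the names under the count minimum lie outside it and were chosen after their values were seen. Some genes that the rule names are not reported here.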

Additional observations from a re-analysis of the deposited data

How the results depend on the processing

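With an adjusted test, 0 members passed in each of the 3 comparisons under every alternative fit run. The median log2 fold change of members, homozygous over wild type, ranged from 0.10 (without wild-type rat 1) to 0.40 (without wild-type rat 3) over left-out libraries. Over the same settings it ranged from 0.06 to 0.37 in complex I, 0.22 to 0.58 in complex II, 0.22 to 0.54 in complex III, 0.08 to 0.40 in complex IV and 0.11 to 0.40 in complex V, and from -0.01 to 0.29 over members for heterozygous over wild type and from 0.02 to 0.23 for homozygous over heterozygous. On scales added after seeing the data it was -0.13 without TMM and -0.60 in the deposited TPM. With a replicate block it was 0.21, with 0 members called. At an unadjusted p under 0.05 there were then 26 members (33.8%) in place of 19 (24.7%). With the same block, named loci went from 11.1% to 16% and all tested loci from 9.13% to 12%. Deviations of same-numbered rats correlated between -0.33 and 0.43 over members and between -0.18 and 0.40 over all tested loci, where the 3 values of rat 3 were 0.38, 0.40 and 0.27. Not every pair exceeded 0.1 in either set, so the numbers were not taken as pairs. With only the 2 genotypes compared in the fit, 6 members (7.79%) in place of 1 (1.3%) had an unadjusted p under 0.05 for homozygous against heterozygous. Named loci went from 0.863% to 2.81% and all tested loci from 1.71% to 3.01%. Members with few counts, such as Cox8b, Cox6a2 and Cox6b2, have errors among the widest.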
